A study of Homo sapiens with 6 samples.

Results

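Circular RNAs (circRNAs) arise by back-splicing, in which a downstream splice donor is joined to an upstream acceptor, and in RNA sequencing they are counted through the reads that cross this back-splice junction. This section describes the circRNAs whose host genes carry the classical cell cycle and centrosome names: cyclin-dependent kinases (CDK), numbered CDC genes other than CDC42 and its relatives, cyclins (CCN with a letter), MCM and ORC replication proteins, centromere (CENP) and numbered centrosome (CEP) proteins, ANAPC, NEK, BUB, PLK, AURK and E2F names, SMC1 to SMC4 and STAG. The names alone chose them and no read count entered the rule, but the rule was chosen with earlier results of these data known. They comprised 174 of 7746 circRNAs in the table, from 78 of 3348 host genes. The libraries came from PANC-1, an established human pancreatic ductal carcinoma cell line, and from PANC-1-GR, a resistant line derived from it under Gemcitabine, with 3 libraries of each. PANC-1-GR cells were raised from PANC-1 cells in medium whose Gemcitabine concentration climbed from 0.1 to 200 µg/ml over 40 weeks, and were then kept resistant with 10 µg/ml added from time to time, while PANC-1 cells were the parental line. PANC-1-GR is 1 derived line, and no source used here states separate cultures for the 3 libraries of a line, and the p-values therefore reflect only library-to-library spread, which may be technical.

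Cyclins bind and activate cyclin-dependent kinases, which drive DNA replication and then mitosis, and the origin recognition complex (ORC) and the MCM helicase open the origins at which replication begins. In mitosis the centrosomes build the spindle poles, the kinetochore joins chromosomes to the spindle, cohesin holds sister chromatids together, and the spindle checkpoint restrains the anaphase-promoting complex. Several CDK and cyclin names belong to transcription instead. CDK12 and CDK13 with cyclin K, and CDK8 and CDK19 in the Mediator complex, act on RNA polymerase II. Gemcitabine is a deoxycytidine analog whose incorporation blocks DNA synthesis. A circRNA count measures the circle, not the protein-coding mRNA of its host gene, and the mRNAs were not analysed here.

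The junctions below are those of the called circRNAs, of related gene pairs that are compared, and of 1 circle each of SMC3 and AURKA. Junctions are printed only where both ends lie in coding sequence, so that of the 522-nt circle of CEP70 is not shown. Each line gives the last 20 bases of the circle's last exon in lower case, followed by the first 20 bases of its first exon in capitals, 5′ to 3′ on the strand of the gene, so the step to capitals is the back-splice. The bases were read from GENCODE release 29 transcripts, after each circle had been matched to a run of exons by its length and its genomic span.
CEP85, exons 5 to 7: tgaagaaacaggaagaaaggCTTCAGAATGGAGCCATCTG
CDK12, exons 3 to 4: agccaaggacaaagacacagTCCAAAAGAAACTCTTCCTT
CDK12, exons 3 to 5: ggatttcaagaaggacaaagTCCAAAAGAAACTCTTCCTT
CDK13, exons 2 to 5: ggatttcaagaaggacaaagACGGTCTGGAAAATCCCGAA
CDK13, exons 3 to 5: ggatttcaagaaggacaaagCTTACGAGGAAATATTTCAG
CDK8, exons 2 to 4: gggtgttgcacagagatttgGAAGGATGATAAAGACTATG
CDK19, exons 2 to 4: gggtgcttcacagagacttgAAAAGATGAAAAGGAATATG
CCNB1, exons 6 to 7: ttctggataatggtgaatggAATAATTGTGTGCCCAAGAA
CCNB2, exons 6 to 7: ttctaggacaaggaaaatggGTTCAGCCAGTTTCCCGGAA
SMC3, exons 19 to 20: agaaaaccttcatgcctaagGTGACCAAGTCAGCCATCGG
AURKA, exons 3 to 6: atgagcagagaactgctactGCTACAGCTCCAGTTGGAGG
The 20 bases before the junction were identical in CDK12 exons 3 to 5 and in both CDK13 circles listed here, while the bases in capitals differed. The paired CDK8 and CDK19 junctions, and the paired CCNB1 and CCNB2 junctions, differed on both sides.

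In all, 1103 of 66978 junction reads (1.65%) fell on these 174 circRNAs. The libraries held between 9222 and 13689 junction reads, and between 60 and 92 of the 174 circRNAs were seen in any one library. The median circRNA had 4 reads over all 6 libraries, as had the other circRNAs of the table, and 110 of the 174 (63.2%) had fewer than 5 reads, against 56% of the others. Of markers of the labelled cell type, KRT19 was the only 1 of 8 ductal epithelium genes with a circRNA, with 2 reads in the parental and 1 in the resistant line. None of 20 markers of fibroblast, blood, endothelial, acinar and endocrine cells had any, so the label could hardly be checked from circRNAs.

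The summed level of the 174 circRNAs differed between the lines by less than the spread of the libraries. Per 10000 junction reads of the library it was 173, 161.2 and 149.5 in PANC-1 replicates 1, 2 and 3, and 168.7, 149.6 and 180 in PANC-1-GR replicates 1, 2 and 3. The lines overlapped, with means of 161.3 ± 11.7 and 166.1 ± 15.3 (SD, n = 3). The ratio of PANC-1-GR to PANC-1 was 1.03, with a 95% Clopper-Pearson interval of 0.914 to 1.16, which covers counting error only. Circles seen in only 1 of the lines were about equally frequent, with 39 confined to PANC-1 libraries and 34 to PANC-1-GR libraries, and such shares were close to those of the other circRNAs (22.4% against 20.9% and 19.5% against 19.6%). In these bulk libraries, fewer cells of a kind and less RNA per cell cannot be told apart.

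Ordered by role, the centrosome proteins were the group with the most reads, 369 of 1103 from 54 circRNAs of 19 genes, and no role group separated the lines. Centrosome circRNAs stood at 53.9 ± 9.08 per 10000 in the parental line and 55.9 ± 1.71 in the resistant line. Transcription-associated kinases and cyclins stood at 26.2 ± 4.87 and 24.6 ± 2.60. Replication proteins were at 14.1 ± 4.07 and 10.9 ± 1.09, cohesin and condensin at 11.4 ± 7.30 and 14.2 ± 6.90, and the cell cycle kinases, cyclins and phosphatases at 10.9 ± 5.79 and 9.74 ± 2.82 (SD, n = 3 each). In each of these groups at least 1 PANC-1-GR library lay within the range of the PANC-1 libraries. Without the 19 genes whose role lies elsewhere, lies chiefly in transcription or is less settled, 59 genes with 130 circRNAs gave 373 reads in the parental and 370 in the resistant libraries, with a ratio of 0.974 (0.841 to 1.13).

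**Figure D1:**
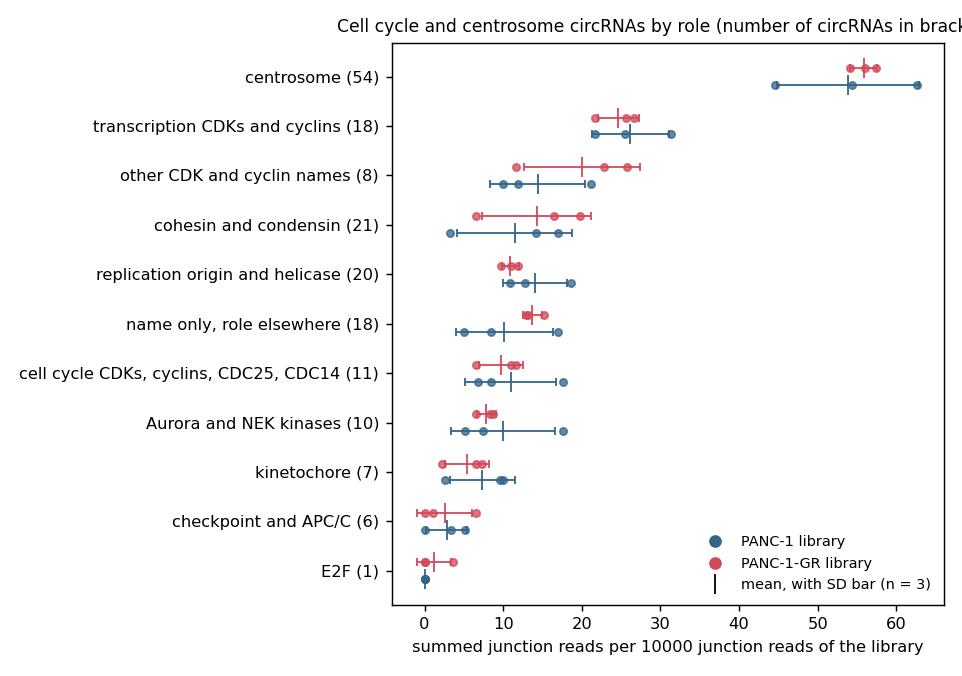
Summed level of the circRNAs of each role group (x axis, reads per 10000 junction reads), for PANC-1 (blue) and PANC-1-GR (red). Points are libraries, ticks are means and bars are SDs (n = 3), and the points of the lines overlap in every group, with centrosome circRNAs at 53.9 in the parental and 55.9 in the resistant line.

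Only 18 of the 174 circRNAs had at least 3 reads in at least 3 libraries, and these 18, with 41.1% of the reads, could be tested. A circRNA was called when edgeR's quasi-likelihood test gave an unadjusted p of at most 0.05 and a fold change of at least 2. Of the 18, 1 was called higher in PANC-1-GR, where 2.79% of all 969 tested circRNAs were, and 1 was called lower, where 1.44% were. A single call among 18 is too few to be read against those shares. No circRNA of the table passed a Benjamini-Hochberg adjusted p of 0.05 in edgeR's test, 49 had an unadjusted p under 0.05, of which 2 were these, and their smallest adjusted p was 0.93. The median log2 fold change was 0.30 over the 18 and −0.04 over all tested circRNAs, and 11 of the 18 had a positive value, against 46.4% of all.

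**Figure D2:**
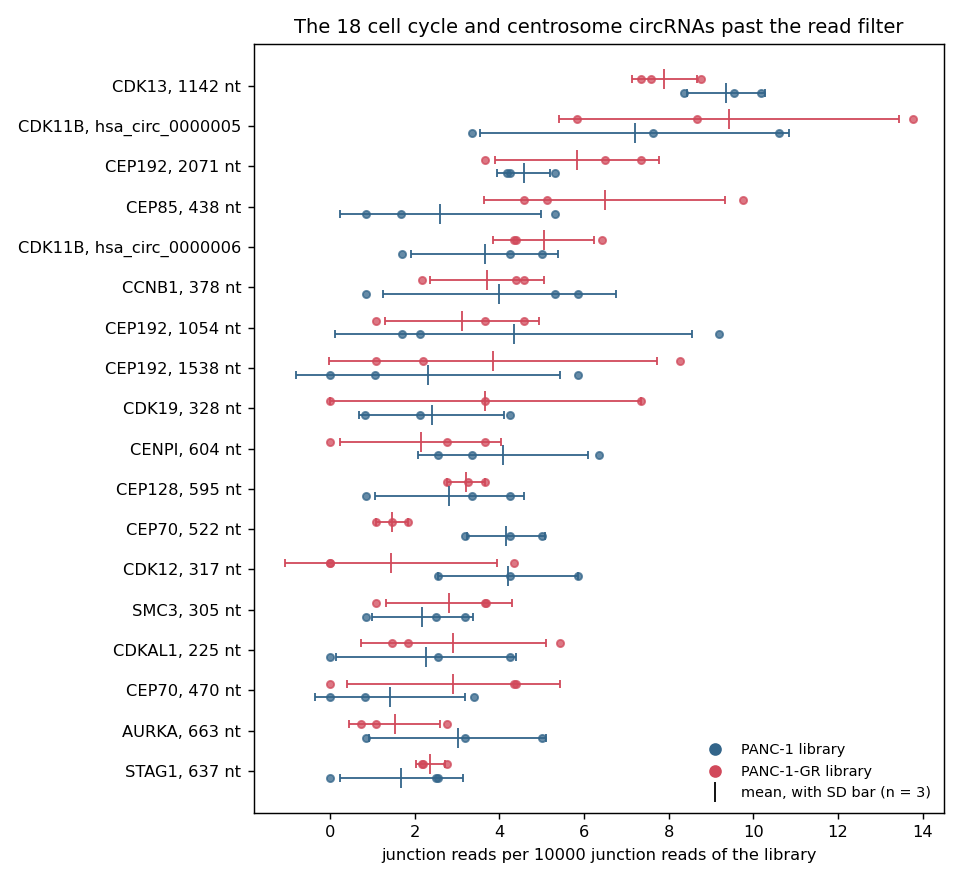
Level (x axis, reads on the circle's junction per 10000 junction reads of its library) of the 18 circRNAs past the read filter, named by host gene and circle length or circBase ID, with PANC-1 in blue and PANC-1-GR in red. Points are libraries, ticks are means and bars are SDs (n = 3), and the libraries of the lines are apart only for the 522-nt circle of CEP70.

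The circRNA called higher came from CEP85, a centrosome protein that restrains the kinase NEK2 in centrosome separation. It is hsa_circ_0000033 (chr1:26584088-26586293, plus strand, hg19), a 438-nt circle of coding exons 5 to 7. It had 2, 1 and 5 reads in the parental libraries and 7, 9 and 5 in the resistant ones. PANC-1-GR replicate 2 was the highest library and PANC-1 replicate 3 reached the reads of PANC-1-GR replicate 3, so the lines overlapped. The log2 fold change was 1.31 ± 0.62 (SE), with an unadjusted p of 0.0356 and an adjusted p of 0.93 in edgeR's test. Leaving out PANC-1 replicate 1, PANC-1 replicate 2 or PANC-1-GR replicate 2 ended the call, at log2 fold changes of 1.10, 0.89 and 0.97. DESeq2 gave an unadjusted p of 0.0918 in place of edgeR.

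The other 3 CEP85 circles were sparse, between 3 and 5 reads each over all libraries. Summed over the gene, CEP85 had 4, 4 and 6 reads in the parental cells, compared with 9, 10 and 8 in the resistant cells. Every PANC-1-GR library lay above every PANC-1 library per 10000 junction reads, at 8.26 ± 2.27 against 4.37 ± 1.73 (SD, n = 3). The log2 fold change of the gene was 0.93 ± 0.52 (SE) with an unadjusted p of 0.0727 in edgeR's test, which was not a call. Without PANC-1 replicate 3 edgeR's test gave 1.24 with an unadjusted p of 0.0344. Its relative CEP85L had 2, 4 and 1 reads in parental PANC-1 cells, against 3, 4 and 3 in PANC-1-GR cells.

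CDK12, a kinase of the RNA polymerase II tail that is known for sustaining the transcription of long DNA repair genes, gave both the circRNA and the host gene that were called lower. The circle of coding exons 3 to 4 (chr17:37646810-37649143, plus strand, 317 nt, without a circBase ID) had 7, 3 and 4 reads in the parental libraries and 0, 4 and 0 in the resistant ones. PANC-1-GR replicates 1 and 3 had none, but PANC-1-GR replicate 2 lay within the PANC-1 range. The log2 fold change was −1.74 ± 0.83 (SE), with an unadjusted p of 0.0354 and an adjusted p of 0.93 in edgeR's test. In edgeR's test the call ended when PANC-1 replicate 1, PANC-1 replicate 3, PANC-1-GR replicate 1 or PANC-1-GR replicate 3 was left out, with log2 fold changes of −1.39, −1.77, −1.07 and −1.22. It also ended with the library number as a replicate block, at −1.79 and an unadjusted p of 0.0897 in edgeR's test, and DESeq2 gave an unadjusted p of 0.122 in place of edgeR.

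The remaining 3 CDK12 circles, of which 2 share the start of exon 3 with the first, were found in PANC-1 libraries only, with 3, 2 and 2 reads. Summed over its 4 circles, CDK12 had 9, 7 and 5 reads in the parental cells, compared with 0, 4 and 0 in the resistant cells. All 3 PANC-1-GR libraries lay below all PANC-1 libraries per 10000 junction reads, with means of 1.45 ± 2.50 and 6.25 ± 1.14 (SD, n = 3). The ratio was 0.187 (95% Clopper-Pearson interval 0.0467 to 0.554, counting error only). The log2 fold change was −2.26 ± 0.78 (SE), with an unadjusted p of 0.00433 and an adjusted p of 0.617 in edgeR's test over 1093 host genes. The direction held when any 1 library was left out, with values from −5.88 to −1.62, the first of them without PANC-1-GR replicate 2, the only library of that line with CDK12 reads. Without that library alone the adjusted p of CDK12 passed 0.05 in edgeR's test.

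CDK13, the closest relative of CDK12, had circles in every library of both lines. Its circle of exons 2 to 5, hsa_circ_0001699 (chr7:40027198-40041630, plus strand, 1142 nt), was the most abundant of the 174 circRNAs, with 10, 12 and 9 reads in parental PANC-1 cells, against 12, 7 and 8 in PANC-1-GR cells. The lines overlapped, with a log2 fold change of −0.24 ± 0.43 (SE) and an unadjusted p of 0.574. Summed over its 6 circles CDK13 had 12, 16 and 14 reads in the parental libraries and 18, 13 and 12 in the resistant ones, with a log2 fold change of 0.03 ± 0.35. The difference between the CDK12 and CDK13 fold changes was not tested.

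For 3 of the pairs of related genes that were compared, the mapping of circles to exons placed circles at corresponding exons. Among the 153 matched circles of these genes, 15 pairs from different genes had the same length. Only 2 of these pairs shared more than 40% of their bases position by position, and the others shared between 18.7% and 36.6%. Those 2 pairs were CDK8 with CDK19, each a 328-nt circle of exons 2 to 4 with 75.3% identical bases, and CCNB1 with CCNB2, each a 378-nt circle of exons 6 to 7 with 66.9%. The circles of CDK12 exons 3 to 5 (488 nt) and CDK13 exons 3 to 5 (482 nt) had 70.3% identical bases when aligned. This alignment allowed gaps, so its value is not comparable with the position-by-position ones. The same alignment of CEP85 circles with CEP85L circles gave at most 45.7%, between circles of 308 and 477 nt. Aligned identities are percentages of the longer circle, so unequal lengths limit them and these 2 values are not directly comparable. The CCNB2 circles, the identities and the values of CEP72 and CEP85L were chosen for description after their values were seen.

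The levels of the paired circles were not compared by a test. CDK8 exons 2 to 4 (hsa_circ_0029803) had 1, 2 and 2 reads in the parental cells, compared with 5, 2 and 3 in the resistant cells. Per 10000 junction reads the lines did not overlap, but the circle had too few reads to be tested. CDK19 exons 2 to 4 (hsa_circ_0002160) had 1, 5 and 2 reads in parental PANC-1 cells, against 5, 0 and 8 in PANC-1-GR cells, with the lines overlapping and a log2 fold change of 0.63 ± 0.71 (SE, unadjusted p = 0.378). Cyclin B1, the partner of CDK1 at entry into mitosis, gave only the circle of exons 6 to 7 (hsa_circ_0001495), with 7, 1 and 5 reads in the parental libraries and 6, 2 and 5 in the resistant ones and a log2 fold change of −0.05 ± 0.63. The matching CCNB2 circle had 2 reads in PANC-1 replicate 1 and none elsewhere, and a CCNB2 circle of exons 2 to 5 had 4 reads in PANC-1-GR replicate 1 alone.

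**Figure D3:**
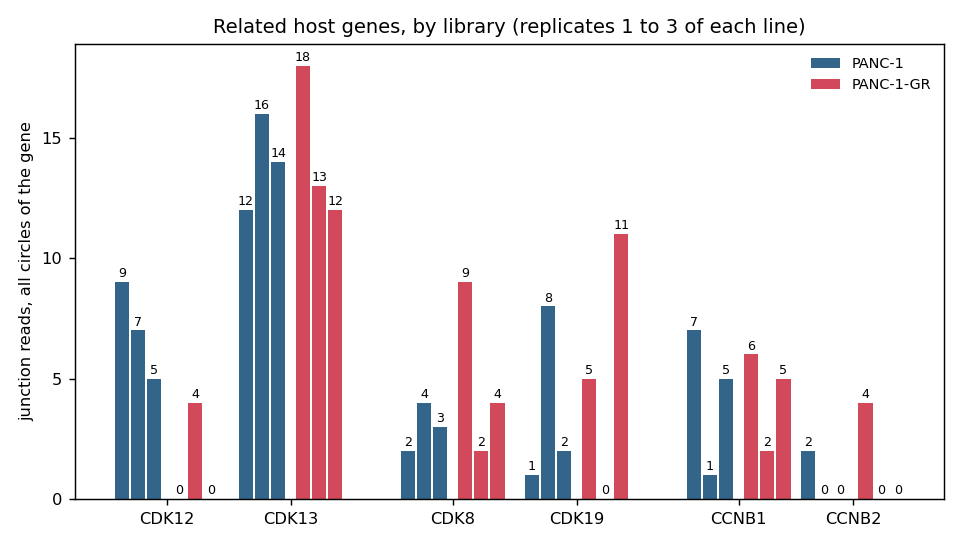
Junction reads summed over all circles of 6 host genes (y axis), by library, with PANC-1 in blue and PANC-1-GR in red and replicates 1 to 3 from left to right. CDK12 had 9, 7 and 5 reads in the parental cells, compared with 0, 4 and 0 in the resistant cells, while its relative CDK13 had between 12 and 18 in every library.

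Among centrosome genes, CEP192, the scaffold that recruits Aurora A and PLK1 to the centrosome, was the richest source of reads of all 78 host genes, with 114 over 10 circles. Of these circles, 5 began at the same base, the start of exon 2 (chr18, position 12999420), and carried 89 of the reads. The circle of exons 2 to 15 (hsa_circ_0046999, 2071 nt) was even across libraries, with 5, 5 and 5 reads in parental PANC-1 cells, against 5, 6 and 8 in PANC-1-GR cells. The circle of exons 2 to 9 (hsa_circ_0000831) had 11, 2 and 2 reads in the parental libraries and 5, 1 and 5 in the resistant ones, and that of exons 2 to 11 had 7, 0 and 1 reads in the parental cells, compared with 3, 1 and 9 in the resistant cells. These 2 varied more within a line than between the lines, with log2 fold changes of −0.47 ± 0.63 and 0.65 ± 0.71 (SE). Without PANC-1 replicate 1, which held 7 of the 8 PANC-1 reads of the latter, its value was 2.76 with an unadjusted p of 0.0186 in edgeR's test. Summed over the gene, the log2 fold change was 0.21 ± 0.31.

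CEP70, a centrosome protein that binds gamma-tubulin, gave 3 circles that share 1 end (chr3, position 138289160, minus strand) and differ in where they start. The 522-nt circle (hsa_circ_0003823) had 6, 5 and 3 reads in parental PANC-1 cells, against 2, 1 and 2 in PANC-1-GR cells. It was the only 1 of the 18 tested circRNAs whose libraries did not overlap between the lines, where 10.8% of all tested circRNAs did not, and its log2 fold change of −1.46 ± 0.78 (SE) had an unadjusted p of 0.0637, which was not a call. Without PANC-1 replicate 3 the value in edgeR's test was −1.62 with an unadjusted p of 0.0388. The 470-nt circle (hsa_circ_0004524), which lacks 52 bases at its start, had 1, 4 and 0 reads in the parental libraries and 6, 4 and 0 in the resistant ones, with a log2 fold change of 0.91 ± 0.88. The longer of the pair thus had 14 of 19 reads in the parental line and 5 of 15 in the resistant line, a difference that was not tested. The 396-nt circle (hsa_circ_0002468) appeared in PANC-1 replicate 2 with 6 reads and in PANC-1-GR replicate 1 with 3.

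CEP128, a protein of the appendages of the mother centriole, had 7 circles and 13, 9 and 10 reads in the parental cells, compared with 9, 6 and 8 in the resistant cells. Its libraries did not overlap per 10000 junction reads, with means of 9.70 ± 1.79 and 6.81 ± 0.47 (SD, n = 3), but the log2 fold change of −0.47 ± 0.43 (SE) had an unadjusted p of 0.274. Its most abundant circle, exons 15 to 18 (hsa_circ_0032822), had 4, 1 and 4 reads in parental PANC-1 cells, against 5, 3 and 3 in PANC-1-GR cells. CEP72, which belongs to the centriolar satellites, had 8, 0 and 2 reads in the parental libraries and 5, 2 and 7 in the resistant ones. CEP350 had 5 circles and 3, 4 and 2 reads in the parental cells, compared with 2, 4 and 0 in the resistant cells. Neither was called.

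**Figure D4:**
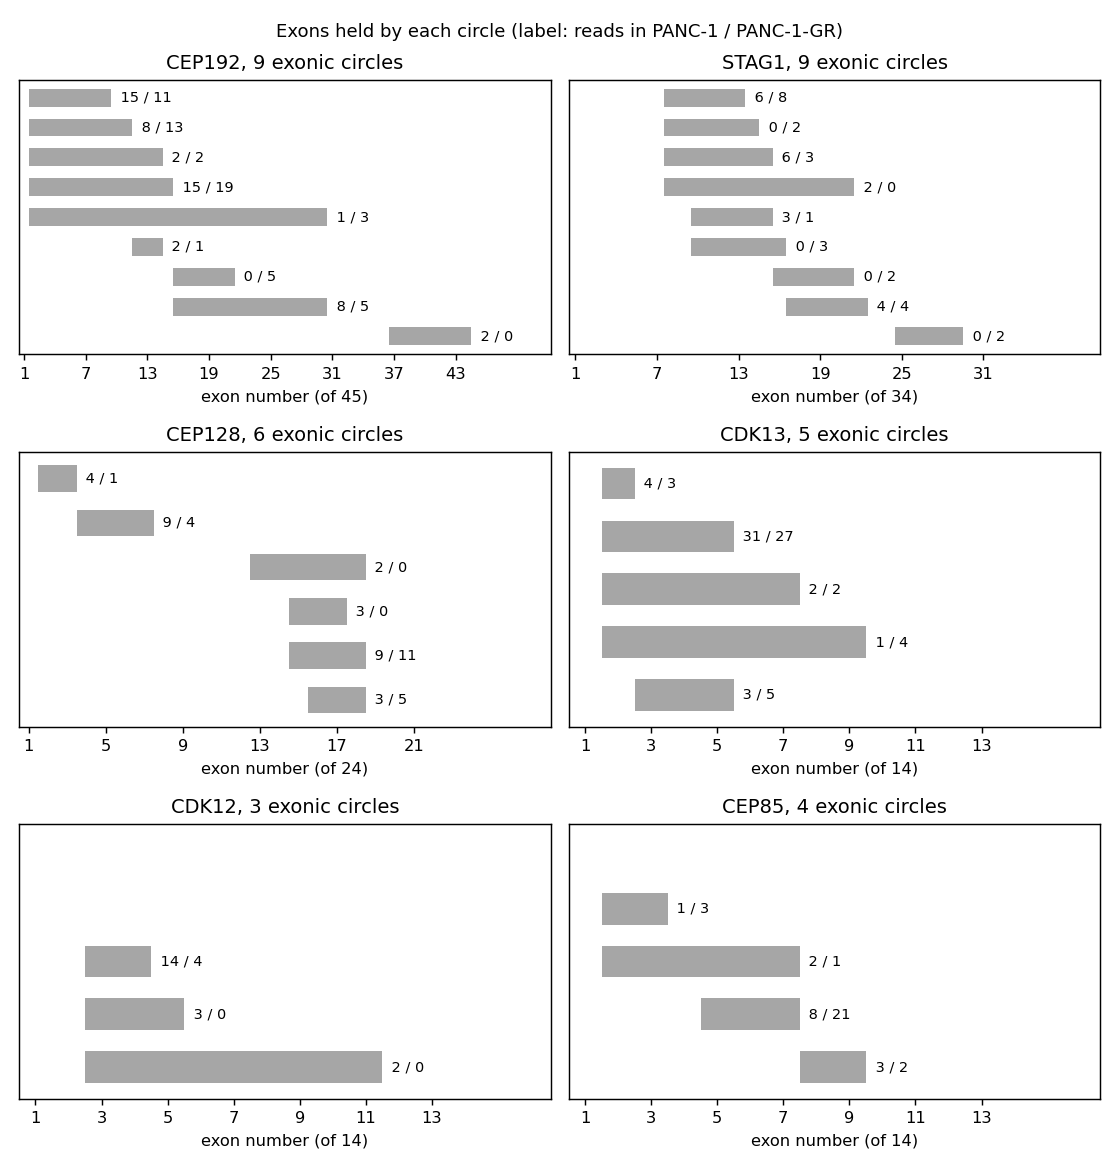
Exons held by each exonic circle of 6 host genes (x axis, exon number in the matched transcript), 1 bar per circle, each labelled with its reads summed over the 3 libraries of PANC-1 and of PANC-1-GR. In CEP192, 5 circles begin at exon 2, and in STAG1, 4 begin at exon 8. Circles matched to another transcript or to none are not drawn.

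STAG1, a cohesin subunit, had the most circles of any of the 78 genes, 12, with 53 reads in all. STAG1 had 12, 13 and 0 reads in parental PANC-1 cells, against 18, 4 and 6 in PANC-1-GR cells, so that PANC-1 replicate 3 held none of its circles, and the log2 fold change was 0.15 ± 0.46 (SE). Of the STAG1 circles, 4 began at exon 8, and among them the circle of exons 8 to 13 (hsa_circ_0067480) had 3, 3 and 0 reads in the parental libraries and 3, 2 and 3 in the resistant ones. SMC3, the partner of SMC1A in cohesin, gave the 305-nt circle of exons 19 to 20 (hsa_circ_0000260). That circle had 3, 1 and 3 reads in the parental cells, compared with 5, 1 and 4 in the resistant cells. Neither gene was called. The STAG1 circle of exons 8 to 15 had 6 reads in PANC-1 replicate 2 and 3 in PANC-1-GR. SMC4, a condensin subunit, had 4 reads in PANC-1 replicate 2 and 2 in PANC-1-GR replicate 3. The STAG3L5P-PVRIG2P-PILRB locus had 5 reads in all. The STAG3L3 and STAG3L5P rows of this group come from partial copies of STAG3 and their assignment is uncertain.

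Mitotic kinases and the kinetochore were thinly covered. AURKA, the centrosomal Aurora kinase, gave the circle of exons 3 to 6 (hsa_circ_0008777), with 6, 1 and 3 reads in parental PANC-1 cells, against 1, 1 and 3 in PANC-1-GR cells, and a log2 fold change of −0.98 ± 0.87 (SE, unadjusted p = 0.26). NEK6, a kinase of spindle assembly, gave the circle of exons 2 to 7 (hsa_circ_0008383), with 2, 1 and 1 reads in the parental libraries and 5, 2 and 4 in the resistant ones. Per 10000 junction reads the lines did not overlap, but the circle had too few reads to be tested. Summed over the gene the lines overlapped, and the log2 fold change of NEK6 was 0.74 ± 0.79. NEK1, a kinase linked to cilia, had 4, 1 and 1 reads in the parental cells, compared with 2, 0 and 0 in the resistant cells. NEK7 had 4 reads in the parental and 6 in the resistant line. CENPI, of the inner kinetochore, gave the circle of exons 2 to 5 (hsa_circ_0006367), with 4, 3 and 6 reads in parental PANC-1 cells, against 5, 0 and 3 in PANC-1-GR cells and a log2 fold change of −0.74 ± 0.71. Its 2 longer circles from exon 2 had 5 reads each. CENPH, CENPC and CENPK, of the same inner kinetochore, had 6, 4 and 2 reads over all libraries. The checkpoint kinase gene BUB1B had 4 circles and 2, 6 and 0 reads in the parental libraries and 6, 1 and 0 in the resistant ones. Its circles held 3 or 4 reads each. BUB1, its partner in the checkpoint, had 3 reads over all libraries and ANAPC7, of the anaphase-promoting complex, had 2.

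None of the 20 circRNAs of replication genes reached the read filter. ORC4, a subunit of the origin recognition complex, had 3, 3 and 4 reads in the parental cells, compared with 3, 1 and 2 in the resistant cells over 2 circles. Its libraries did not overlap per 10000 junction reads, but its log2 fold change of −0.72 ± 0.89 (SE) had an unadjusted p of 0.42. ORC2 had 4, 0 and 3 reads in parental PANC-1 cells, against 7, 2 and 1 in PANC-1-GR cells, and MCM4, of the replicative helicase, had 4 reads in the parental and 6 in the resistant line. ORC5 had 3, 2 and 2 reads in the parental libraries and 1, 1 and 1 in the resistant ones. Its libraries did not overlap per 10000 junction reads either, but ORC5 had too few reads to be tested. Of all tested host genes 10.6% did not overlap. The circles with most reads in this group were hsa_circ_0001074 of ORC4 with 12, hsa_circ_0007612 of ORC5 with 7, and 1 circle each of MCM4 and MCM6, also helicase subunits, with 6. E2F6, a repressing member of the E2F family, was the only E2F gene, with 4 reads in PANC-1-GR replicate 3 and none elsewhere.

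CDK7, the kinase that activates other CDKs and is part of the transcription factor TFIIH, gave 1 circle (hsa_circ_0005730, exons 6 to 8), with 4, 1 and 2 reads in the parental libraries and 1, 0 and 0 in the resistant ones. Both lines had a library with 1 read, but per 10000 junction reads they did not overlap. The ratio was 0.14 with an interval of 0.0031 to 1.09, and the circle was not tested. How many of all circRNAs below the read filter had lines apart was not computed. CDC14A, a mitotic phosphatase, had 0, 0 and 1 reads in the parental cells, compared with 1, 3 and 3 in the resistant cells, and the lines overlapped per 10000 junction reads. Its relative CDC14B had 6 reads in the parental and 4 in the resistant line, of which its circle hsa_circ_0087641 had 4 and 4.

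CDK11B circles ranked high in reads but are uncertain. CDK11B and its neighbour CDK11A are near-identical copies on the same strand, 23786 and 21595 bp long with 43717 bp between them (GENCODE release 29). The 2 circles listed under CDK11B, hsa_circ_0000005 and hsa_circ_0000006, spanned 64072 and 65172 bp, more than either gene. They were listed as sense overlapping and not as exonic. On hg19 they lie at chr1:1586823-1650894 and chr1:1601103-1666274, so both ends of hsa_circ_0000006 are offset from those of hsa_circ_0000005. The ends were not compared with hg19 gene positions, so the listed host gene was not checked for either circle. In reads, hsa_circ_0000005 had 4, 9 and 10 in parental PANC-1 cells, against 8, 8 and 15 in PANC-1-GR cells. For hsa_circ_0000006 there were 6, 2 and 4 reads in the parental cells, compared with 6, 4 and 7 in the resistant cells. Their log2 fold changes of 0.39 ± 0.45 and 0.45 ± 0.60 (SE) were not called. Cyclin I (CCNI) had another ambiguity, since its 2 circles had the same span and were offset by 4 bases at both ends, the only such pair within 10 bases in the whole table. The CCNI circles had 0, 0 and 1 reads in PANC-1 with 1, 2 and 0 in PANC-1-GR, and 0, 0 and 1 with 0, 2 and 0. CDK17, a relative of the CDKs that is abundant in brain, had 1, 2 and 3 reads in the parental libraries and 1, 4 and 1 in the resistant ones, 9 of the 12 on hsa_circ_0002762. CCNYL1, a cyclin Y relative, had 3 reads in the parental and 4 in the resistant line.

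A few genes carry a CDK or CDC name but act elsewhere. CDKAL1, a tRNA-modifying enzyme, had 6 circles and 0, 6 and 7 reads in the parental libraries and 7, 11 and 7 in the resistant ones. PANC-1 replicate 1 had none, the lines overlapped, and the log2 fold change was 0.93 ± 0.56 (SE) with an unadjusted p of 0.0964 in edgeR's test, while limma-voom gave 1.73 with an unadjusted p of 0.00858. Its circle of exons 8 to 9 (hsa_circ_0008086) had 0, 3 and 4 reads in the parental libraries and 2, 5 and 2 in the resistant ones, with a log2 fold change of 0.31 ± 0.82, and a sense overlapping circle from the same start had 8 reads in all. CDC73, of the PAF1 transcription complex, had 5 circles, with 4, 3 and 5 reads in the parental cells, compared with 4, 0 and 4 in the resistant cells. Its circle with most reads was hsa_circ_0003820, with 6. CDC123, which helps to assemble a translation initiation factor, had 6 reads over all libraries and CDC5L, a splicing factor, had 4.

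With reads summed per host gene, 22 of the 78 genes passed the read filter. None was called higher, where 1.56% of 1093 host genes were, and CDK12 was the 1 called lower, where 2.10% were. In edgeR's test 1 of the 22 had an unadjusted p under 0.05 and none an adjusted p under 0.05. The libraries of the lines did not overlap for 4 of the 22, CDK12, CEP128 and ORC4 being lower and CEP85 higher in PANC-1-GR, against 10.6% of all tested host genes. The median log2 fold change was 0.18 over the 22 and 0.00 over all, with 13 of the 22 positive against 50.3% of all. The estimated change was under 2-fold in 21 of the 22, with standard errors of up to 0.94 in log2 units. The same share over all tested host genes was not computed.

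**Figure D5:**
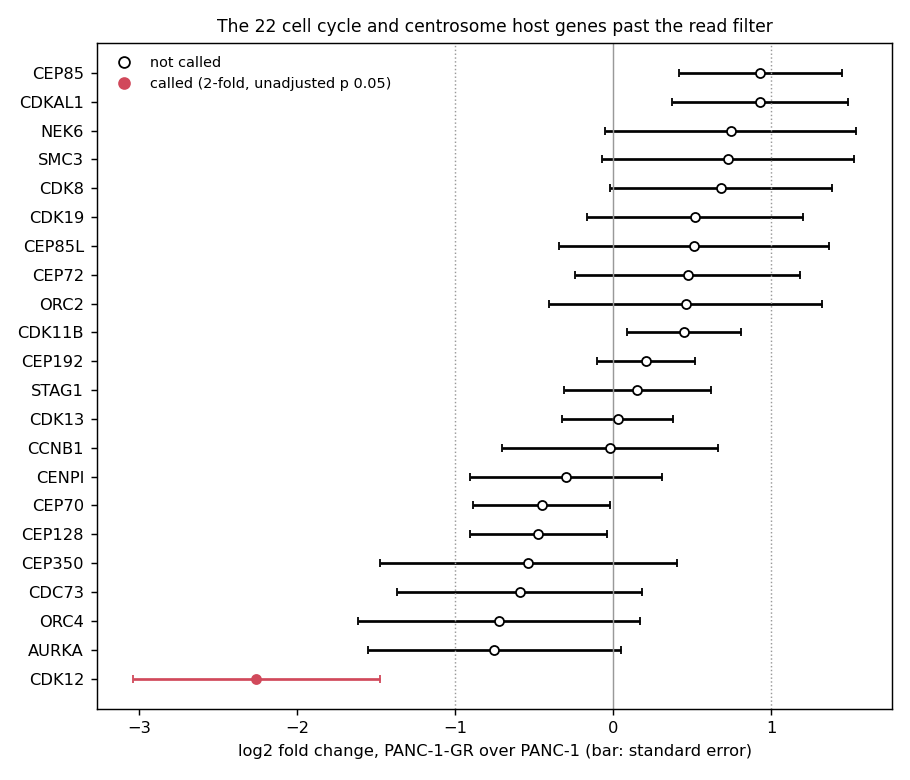
Log2 fold change of PANC-1-GR over PANC-1 (x axis) with its standard error (bars) for the 22 host genes past the read filter, from edgeR's quasi-likelihood fit on reads summed per gene. Dotted lines mark 2-fold, and only CDK12, at −2.26, was called.

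For comparison, 140 other cell cycle and centrosome genes outside the naming rule were listed, of which 83 had a circRNA and 35 passed the read filter. None was called higher and 1 was called lower, where 1.56% and 2.10% of all 1093 tested host genes were. The median log2 fold change was −0.02 with 16 of the 35 positive, against 0.00 and 50.3% over all tested host genes. The gene called lower was CUL3, the scaffold of a family of ubiquitin ligases, with 14, 4 and 8 reads in parental PANC-1 cells, against 8, 3 and 0 in PANC-1-GR cells. Its lines overlapped, and its log2 fold change of −1.23 ± 0.58 (SE) had an unadjusted p of 0.0338 and an adjusted p of 0.838 in edgeR's test.

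In structure, the circRNAs were close to the rest of the table. Of the 174, 155 were exonic and 94 (54%) carried a circBase ID, against 59.8% of the others, while 59 (33.9%) were assigned to no earlier catalogue, against 32.7%. Exonic circles had a median length of 478 nt, from 138 to 5620, where the others had 480. Of the 153 matched to exons, 47 (30.7%) began at exon 2, against 33.9% of the other matched circles, none began at exon 1 and none ended at the last exon. They held a median of 4 exons, against 3, and the longest held 29, CEP192 exons 2 to 30. Of the 116 whose ends both lie in coding sequence, 49 (42.2%) had a length divisible by 3, against 37.1% of the others. An end was shared with another circle by 85 of the 174 (48.9%), against 53.8%. These shares are descriptions of the circRNAs detected at this depth and were not tested.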

How the data were processed

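Total RNA of 3 PANC-1 and 3 PANC-1-GR libraries was sequenced, and 1 table of junction read counts was deposited by the authors, listing for each circRNA its hg19 position, host gene, category (an other-unit annotation) and raw count per library. CASAVA 1.8, BWA and hg19 appear in the submitters' processing notes, and the junction caller was not given in the sources used here. How ambiguous junctions were placed, as in CDK11B and CCNI, depends on that caller. A further 6 columns of per-library log2 CPM values were not used, and 1 emptied line was left out. Names alone chose the circRNAs, but the naming rule, the role groups and the list of 140 other genes were chosen with earlier results of these data known.

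Counts as deposited were fitted over the whole table with edgeR 4.0.16 (quasi-likelihood test, TMM factors, library sizes equal to the column totals, prior count 0.125, at least 3 reads in at least 3 of 6 libraries), for circRNAs and for reads summed per host gene, under R 4.3.3. TMM factors lay between 0.978 and 1.06 in the circRNA fit and between 0.971 and 1.03 in the host gene fit. Calls needed a 2-fold change and an unadjusted p of 0.05, the thresholds named in the study's results, while the lower fold threshold of its methods, 1.5, was an alternative, and Benjamini-Hochberg adjustment covered all features tested. The script was tested on simulated data. Standard errors were derived from the log2 fold change and the F statistic. Ratios have 95% Clopper-Pearson intervals. No molecular identifiers were counted, so reads may repeat a molecule and the intervals cover counting error only. No pair of libraries within a line differed by less than sampling noise.

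Exonic circles were matched by genomic span and exon length to GENCODE release 29 transcripts, so no coordinate was carried between builds. Identity of equal-length circles was counted position by position. Circles of CDK12 and CDK13, CEP85 and CEP85L, CDK8 and CDK19, and CCNB1 and CCNB2 were also aligned globally, with gaps allowed. Identical bases were then given as a percentage of the longer circle. Named were the 20 circRNAs with most reads, every call, the 5 smallest p-values in each direction, the top 3 circRNAs and top 4 genes of each role, and genes with 4 or more circles. Alternatives were RLE factors, library totals alone, edgeR's exact test, DESeq2 1.42.0, limma-voom 3.58.1, no filter, a filter of 10 reads, a replicate block, a prior count of 2, that fold threshold and leaving out each library.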

Additional observations from a re-analysis of the deposited data

How the results depend on the processing

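The sum over the 174 circRNAs moved little: its log2 ratio was 0.04 as reported, 0.03 with TMM-scaled totals, −0.01 with exonic circles alone, −0.04 without the 19 genes that act elsewhere, in transcription or in a less settled role, and from −0.01 to 0.10 when each library was left out. Counts of calls were small and moved easily. With 1 circRNA called higher and 1 lower as reported, DESeq2 called 0 and 0, a filter of at least 10 reads in 3 libraries 0 and 0 (it leaves 1 of these circRNAs to test), no filter 2 higher, a prior count of 2 called 0 higher, and leaving out each library gave 0 to 1 higher and 0 to 1 lower. For host genes, with 0 higher and 1 lower as reported, limma-voom called 1 higher (CDKAL1), the filter of 10 reads 0 lower (CDK12 is then not tested), and leaving out each library 0 to 1 higher (CEP85, without PANC-1 replicate 3) and 1 lower throughout. CDK12 was called lower as a host gene in every alternative that tested it, and only without PANC-1-GR replicate 2 did its adjusted p pass 0.05. The study speaks of paired lines without saying what pairs the libraries. Deviations of same-numbered libraries correlated at 0.024, 0.011 and 0.011, and those of differently numbered ones at −0.029 to 0.016. Most circRNAs had few reads and sampling noise weakens such correlations, so they cannot show whether the numbers are pairs. With the number as a replicate block, 0 circRNAs were called lower (the CDK12 circle had an unadjusted p of 0.0897 in edgeR's test) and no other call changed. Of 605 alternative log2 fold changes of single circRNAs and host genes, 558 kept direction and side of the threshold, 4 passed it, 11 fell back and 32, of 19 results, changed sign, none of these with an unadjusted p under 0.05 in edgeR's test or limma-voom and none of them of a called circRNA or gene. CCNB1 turned to 0.20 (circle) and 0.29 (gene) with limma-voom, and CDK13 to −0.043 (gene) with the filter of 10 reads. The other sign changes came from leaving out a library, with these ranges over the 6 libraries. Circles turned without PANC-1 replicate 1 for CEP192 exons 2 to 9 (−0.87 to 0.74), without PANC-1 replicate 1, PANC-1 replicate 3 or PANC-1-GR replicate 2 for CCNB1 (−0.54 to 0.41), without PANC-1 replicate 1 or PANC-1-GR replicate 2 for CDKAL1 exons 8 to 9 (−0.37 to 0.98), without PANC-1 replicate 2 for CEP128 exons 15 to 18 (−0.21 to 0.56), without PANC-1 replicate 3 for STAG1 exons 8 to 13 (−0.13 to 0.71), and without PANC-1-GR replicate 3 for CDK11B hsa_circ_0000005 (−0.010 to 0.70), CEP192 exons 2 to 11 (−0.46 to 2.76) and CDK19 exons 2 to 4 (−0.18 to 1.37). Host genes turned without PANC-1 replicate 1 for AURKA (−1.23 to 0.11), CCNB1 (−0.51 to 0.41) and CDK13 (−0.15 to 0.12), CCNB1 also without PANC-1 replicate 3 or PANC-1-GR replicate 2 and CDK13 also without PANC-1-GR replicate 1 or 2, without PANC-1 replicate 2 for CEP70 (−0.77 to 0.25), CEP72 (−0.12 to 2.00) and ORC2 (−0.49 to 0.97, also without PANC-1-GR replicate 1), without PANC-1 replicate 3 for CENPI (−0.73 to 0.29), CEP192 (−0.029 to 0.56, also without PANC-1-GR replicate 3) and STAG1 (−0.60 to 0.58, also without PANC-1-GR replicate 1), and without PANC-1-GR replicate 3 for CDK19 (−0.58 to 1.69) and CEP350 (−1.59 to 0.013). The cause was not tested.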
